A study of Homo sapiens with 6 samples.

Results

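TRIM24 peaks called in LNCaP cells under vehicle and in neither other condition of the series are described here. They were chosen by the peak calls themselves: each is a peak of the vehicle list that shares no base with any peak of the DHT list or of the LNCaP-abl list. The rule found 881 such peaks among the 9744 of the vehicle list, and among 37470 peaks in all 3 lists. Chromatin immunoprecipitation and sequencing (ChIP-seq) with a TRIM24 antibody, the same for all conditions, had been done once per condition. LNCaP is an androgen-dependent human prostate cancer line, and its cells spent 72 h in charcoal/dextran-treated serum (CDT) before 4 h with ethanol vehicle or with 10 nM dihydrotestosterone (DHT), a strong androgen. LNCaP-abl is its castration-resistant derivative, always kept in CDT serum and given ethanol vehicle for 4 h. All 3 conditions therefore share steroid-depleted medium, and by their labels the vehicle and DHT cultures differ in the androgen alone. With 1 library per condition, nothing below was tested between conditions. Intervals are exact 95% Clopper-Pearson intervals that cover counting error only, and they treat neighbouring peaks as independent. The lists hold no read counts, so depth is unknown, and a missing peak is a missing call, not a measured absence of TRIM24.

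TRIM24 is a chromatin reader whose paired PHD finger and bromodomain recognise histone H3 tails that are unmethylated and acetylated. It binds nuclear receptors and serves as a coactivator of the androgen receptor, the steroid receptor that enters the nucleus and binds DNA after it meets androgen. In hormone-starved LNCaP cells that receptor is largely without ligand. Positions are given in hg19, and the peaks are named by position because no gene annotation or sequence of that build was used here.

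The vehicle-only peaks were a small class of the vehicle list, 9.04% of it (8.48 to 9.63). Of all vehicle peaks, 51.4% were not called under DHT and 11.6% were not called in LNCaP-abl. Those lists differed in length, with 7105 peaks under DHT and 20621 in LNCaP-abl. When each list was cut to its 7105 best scores, 18.2% (17.3 to 19.1) of vehicle peaks were vehicle-only. In the full lists, a LNCaP-abl peak was also missing for 17.6% (16.5 to 18.7) of the 5010 vehicle peaks that had no DHT peak. It was missing for 5.28% (4.66 to 5.96) of the 4734 that had one. Most vehicle peaks absent under DHT thus had a LNCaP-abl peak, while of the 1131 absent from LNCaP-abl, 77.9% (75.4 to 80.3) were absent under DHT as well. The class that mirrors them, DHT peaks absent from both other lists, held 550 of 7105 peaks, or 7.74% (7.13 to 8.39).

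Vehicle-only peaks were low-scoring and narrow. Their scores, which are the authors' −log10 p-values or q-values, ran from 2.05 to 18.1 with a median of 4.82. The middle 50% lay between 3.84 and 6.02. The median was 5.71 for the 4129 vehicle peaks shared with LNCaP-abl alone, 7.93 for the 250 shared with DHT alone and 8.62 for the 4484 found in all 3 lists. Scores of 10 or more were held by 20 vehicle-only peaks (2.27%, 1.39 to 3.48) and by 23.9% (23.02 to 24.8) of the other vehicle peaks. The range of the other vehicle peaks, from 2.02 to 271.7, contained that of the members. Scores and widths come from the lists that defined the class, so these differences are a description, and a narrow peak also has fewer bases with which to meet another.

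**Figure D1:**
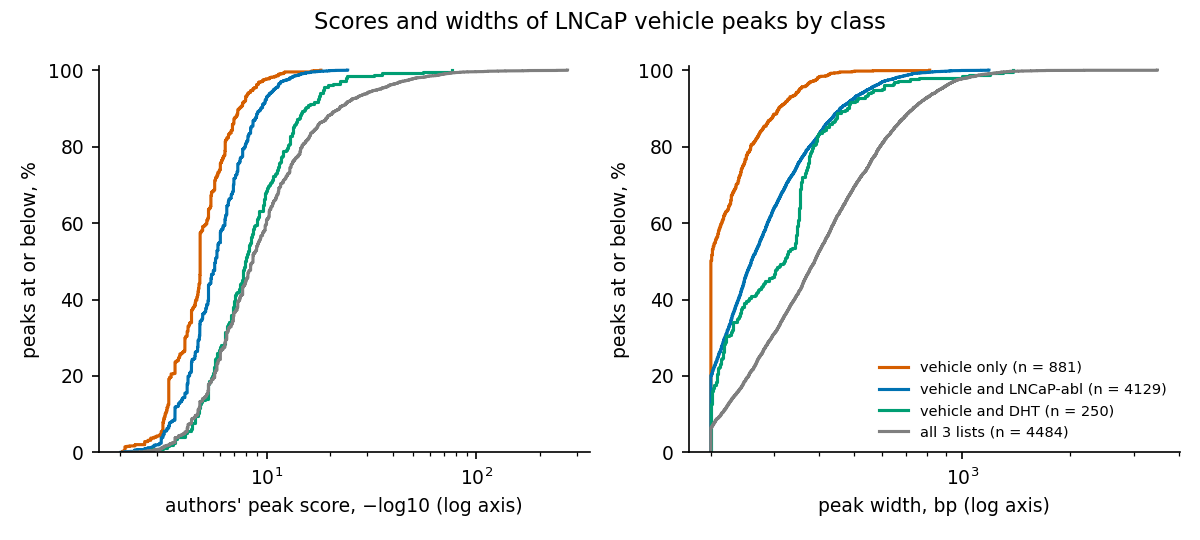
Cumulative share (%) of LNCaP vehicle peaks at or below each score (left) and each width in bp (right), both on log axes, with 1 line for each class. The line of the 881 vehicle-only peaks lies to the left of the other 3 in most of both panels, with medians of 4.82 and 200 bp.

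No vehicle peak was narrower than 200 bp, and 442 vehicle-only peaks (50.2%, 46.8 to 53.5) sat exactly at that width. The same width was held by 20.2% (18.9 to 21.4) of the peaks shared with LNCaP-abl alone and by 6.51% (5.81 to 7.27) of those in all 3 lists. Among vehicle peaks of 200 bp, 27.7% (25.5 to 29.9) were vehicle-only. The share fell step by step with width, to 12.2% (10.8 to 13.8) above 200 and under 250 bp and to 0.555% (0.317 to 0.899) at 400 bp or more, where 16 of 2885 peaks belonged to the class. In total the members covered 205.3 kb of the genome.

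By score decile of the vehicle list, the vehicle-only share went from 23.2% (20.6 to 25.96) in the lowest to 0.410% (0.112 to 1.05) in the highest. It was not a smooth decline: the third decile, with scores from 4.69 to 5.255, held 18.3% (15.9 to 20.9), above the second with 13.9% (11.7 to 16.2). No vehicle-only peak was among the 100 highest-scoring vehicle peaks, which allows a share of up to 3.62%. There were 4 among the first 1000 and 18 among the first 2000. Within a decile the narrowest peaks belonged to the class more often: in the lowest decile 32.3% of the peaks of 200 bp and 14.5% of the wider ones were vehicle-only. In the third decile these shares were 37.5% and 9.21%, and 75 of its 117 vehicle-only peaks of 200 bp had the same score, 4.822. In the seventh decile, with 22 peaks of 200 bp, the shares were close, at 4.545% and 4.41%.

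**Figure D2:**
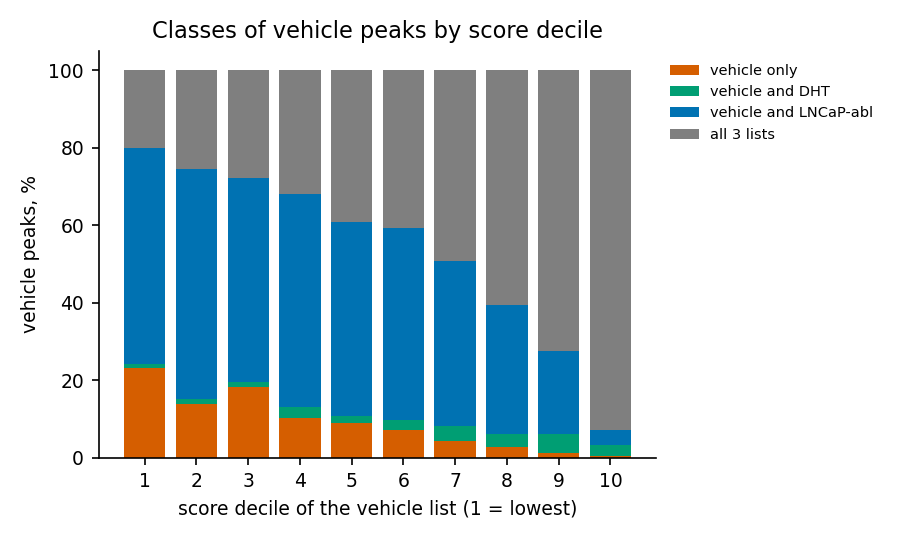
Share (%) of vehicle peaks in each class by score decile of the vehicle list, lowest decile at the left. The vehicle-only part of the bar is 23.2% in decile 1 and 0.410% in decile 10, while peaks of all 3 lists go from 20.2% to 92.8%.

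The DHT-only peaks were also narrow. Within their own list their median score was 5.74 (5.595 to 5.875), and 34.4% (30.4 to 38.5) of them were 200 bp wide. Scores of 10 or more were held by 53 of the 550 (9.64%, 7.30 to 12.4). These scores come from another library of unknown depth, so they stand beside those of the vehicle-only peaks without a ranking.

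The strongest vehicle-only site was chr14:88237489-88237883, 395 bp wide with a score of 18.1, which put it at rank 641 of the vehicle list. It stood by itself: the nearest LNCaP-abl peak was 221.2 kb away, and the nearest DHT and vehicle peaks were each 783.2 kb away. The site at chr11:11268108-11268560, with a score of 12.2, was also remote, 314.8 kb from a LNCaP-abl peak and 437.4 kb from a DHT peak. The site at chr17:69569068-69569366 scored 11.4 and lay 547.9 kb from the nearest LNCaP-abl peak. These 3 were the ones among the 12 highest-scoring members without a called TRIM24 site of any other list within 100 kb.

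Other high-scoring members sat directly beside a called site. The second, chr16:79632894-79633705, had a score of 16.8 and, at 812 bp, was also the widest member. A DHT peak with a score of 12 began 110 bp beyond its end and a LNCaP-abl peak with a score of 5.78 began 181 bp beyond it. A further vehicle peak with a score of 8.23, present in all 3 lists, began 102 bp beyond the same end. The vehicle list thus had a pair of adjacent peaks here where each other list had only the weaker of that pair. The same arrangement held at chr18:70534187-70534545, with a score of 16.3. Its vehicle neighbour 260 bp away had a score of 11.4 and was present in all 3 lists, with a DHT peak 338 bp away and a LNCaP-abl peak 139 bp away. Only 1 bp separated chr7:158937292-158937648, with a score of 16.4, from a LNCaP-abl peak with a score of 3.48. A LNCaP-abl peak with a score of 4.46 ended 66 bp before chr9:133814381-133814753, whose score was 11.7.

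The remaining 5 of the 12 highest-scoring members lay between these extremes. The site at chr16:33896458-33896803 scored 12.1 and was 7.82 kb from a DHT peak. Those at chr13:114520147-114520363, with a score of 11.97, and chr3:72386081-72386398, with a score of 11.4, were 20.3 kb and 18.1 kb from a LNCaP-abl peak. The site at chr5:137785717-137785990, with a score of 11.35, was 10.6 kb from one. The last of the 12, with a score of 12.2, lay on the mitochondrial genome from 9749 to 10047. In all, 4 of the 12 were within 1 kb of a peak of another list and 9 were within 100 kb.

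Wide members were few and mostly of moderate score. After the chromosome 16 site came chr19:1396178-1396742 with 565 bp and a score of 7.29, and chr19:7197294-7197794 with 501 bp and a score of 8.96. The latter ended 40 bp before a LNCaP-abl peak 827 bp wide with a score of 127.8. Next were chr1:2412033-2412526, with 494 bp and a score of 6.33, and chr12:58005354-58005810, with 457 bp and a score of 7.75. The lowest-scoring members were chr19:1986456-1986683, chr17:80920951-80921150 and chr12:53453087-53453286, with scores between 2.05 and 2.06, close to the lowest of the list.

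The members ranged from peaks that touched another list's peak to peaks megabases from any. Within 1 kb of a DHT or LNCaP-abl peak lay 214 members (24.3%, 21.5 to 27.3), a further 220 lay from 1 to 10 kb away, 315 from 10 to 100 kb and 132 (15.0%, 12.7 to 17.5) at 100 kb or more. The median gap was 10.2 kb. The nearest peak belonged to LNCaP-abl for 755 members and to DHT for 125, in lists of 20621 and 7105 peaks. Median gaps were 11.8 kb to LNCaP-abl and 47.0 kb to DHT. The last value can be set beside the vehicle peaks shared with LNCaP-abl alone, whose median gap to a DHT peak was 42.0 kb. Those peaks more often had a DHT peak within 1 kb, 22.9% (21.6 to 24.2) of them against 8.51% (6.76 to 10.6) of the vehicle-only peaks. For vehicle peaks shared with DHT alone, the median gap to a LNCaP-abl peak was 8.19 kb. A LNCaP-abl peak lay within 1 kb of 20% (15.2 to 25.5) of those and of 22.5% (19.8 to 25.4) of the vehicle-only peaks. The median score was between 4.785 and 4.82 in each of the 4 distance bands, and each band held 5 of the 20 members with a score of 10 or more. The single value of 4.822 was held by 39 of the 132 members at 100 kb or more and by 5 of the 214 within 1 kb.

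**Figure D3:**
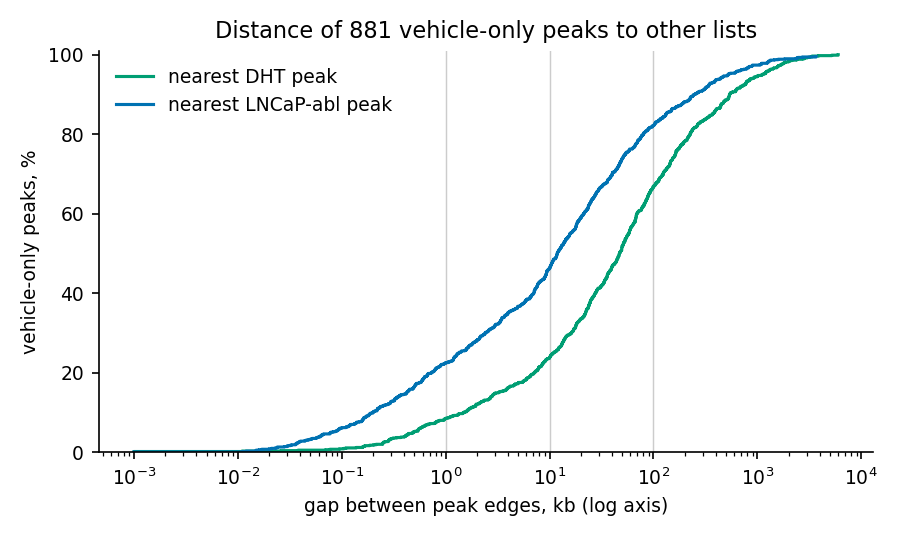
Cumulative share (%) of the 881 vehicle-only peaks by the gap in kb (log axis) to the nearest DHT peak and to the nearest LNCaP-abl peak; grey lines mark 1, 10 and 100 kb. The LNCaP-abl line is at 22.5% at 1 kb and 82.2% at 100 kb, the DHT line at 8.51% and 67.0%; 4 mitochondrial members have no LNCaP-abl peak on their chromosome.

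Members close to another list met several kinds of neighbour. Of the 75 with a DHT peak within 1 kb, 55 (73.3%, 61.9 to 82.9) had a DHT neighbour that itself overlapped a different vehicle peak, so that the vehicle-only peak was an extra peak beside a shared one. Of the 198 with a LNCaP-abl peak within 1 kb, 78 (39.4%, 32.5 to 46.6) were of this kind. In 107 of the 198, the LNCaP-abl neighbour overlapped no LNCaP peak at all, so that each cell line had its own call less than 1 kb from the other's. For 5 of the 75, the DHT neighbour overlapped no vehicle and no LNCaP-abl peak. Those 198 members had 193 different LNCaP-abl peaks as nearest neighbours. Taken once per member, these neighbours had a median score of 12.4 (9.77 to 15.97), against 26.1 for the LNCaP-abl list. Their median width was 405.5 bp (372 to 450), against 528 bp. DHT neighbours lay close to their list, with a median score of 7.11 (6.03 to 8.12) against 6.82 and a median width of 324 bp (278 to 381) against 296 bp.

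At the edge of the rule, the members that came nearest to another list without sharing a base were chr15:27216196-27216395, which abuts a DHT peak, and chr7:158937292-158937648 and chr9:79250043-79250242, 1 bp from a LNCaP-abl and a DHT peak. Their scores were 3.66, 16.4 and 6.99. Just outside the class, chr19:18809214-18809425 shared 1 bp with a DHT peak, chr16:2077547-2077792 shared 5 bp with a LNCaP-abl peak and chr3:47018057-47018266 shared 5 bp with a DHT peak. Their scores were 6.31, 6.57 and 5.29, inside the range of the members.

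Among the most isolated members, chr13:88324473-88324721 was 2827.6 kb from the nearest peak of another list and chr13:63683322-63683521 was 2711.2 kb away. Both had a score of 4.822, a value shared by 134 vehicle peaks of which 97 were vehicle-only. The third, chr14:85999771-86000050, with a score of 6.28, was 2459.0 kb away, and its nearest vehicle neighbour, 2237.4 kb off, was the strongest member of the class. Of the 132 members at 100 kb or more, 58.3% (49.4 to 66.9) were 200 bp wide, against 43.0% (36.3 to 49.9) of those within 1 kb. In 43 cases a member lay in a megabase with no DHT and no LNCaP-abl peak.

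Vehicle-only peaks with another member within 10 kb were a minority, and some windows of 1 Mb held several. The members fell in 547 of the 2085 windows of 1 Mb that held a vehicle peak, and 392 members were the only one in their window. Another member lay within 10 kb for 90 of them (10.2%, 8.30 to 12.4), and any other vehicle peak for 288 (32.7%, 29.6 to 35.9). For vehicle peaks shared with LNCaP-abl alone the latter share was 42.7% (41.2 to 44.2). Among the 134 members with another vehicle peak within 1 kb, the nearest such peak was itself vehicle-only for 43. In the whole vehicle list, 9.04% of peaks were vehicle-only. At the other end, 22 windows had 5 or more members, and these held 156 of the 881 (17.7%, 15.2 to 20.4).

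The class lay nearer to chromosome ends than the other peaks of its list. Within 5 Mb of a chromosome end lay 318 of the 877 nuclear members, or 36.3% (33.1 to 39.5), against 18.6% (17.8 to 19.4) of the other nuclear vehicle peaks. Ends were taken as position 1 and the end of the last peak of any list, and the 5 Mb limit was chosen after the data were seen. The share was 19.7% (18.5 to 20.9) for vehicle peaks shared with LNCaP-abl alone and 15.1% (10.9 to 20.2) for those shared with DHT alone. The DHT-only peaks were at 18.2% (15.1 to 21.7) and the LNCaP-abl-only peaks at 19.2% (18.5 to 19.9). The whole DHT and LNCaP-abl lists were at 17.9% and 18.7%.

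Read the other way, 16.2% (14.6 to 17.9) of vehicle peaks in the outer 5 Mb were vehicle-only, and 7.19% (6.63 to 7.79) of those further in. The share was highest from 1 to 2 Mb, at 20.2% (16.95 to 23.7), and stayed between 6.70% and 8.73% in every band beyond 5 Mb. Of the 23 chromosomes other than Y, 21 had a higher share in their outer 5 Mb than inside; chromosomes 3 and 15, with 34 and 22 outer vehicle peaks, had 0 outer members. On 8 chromosomes the intervals of the 2 shares did not overlap. On chromosome 1 the outer share was 21.5% (14.5 to 29.9) and the inner share 5.37% (4.00 to 7.04). On chromosome 10 the shares were 31.0% (17.6 to 47.1) and 7.99% (5.49 to 11.2).

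**Figure D4:**
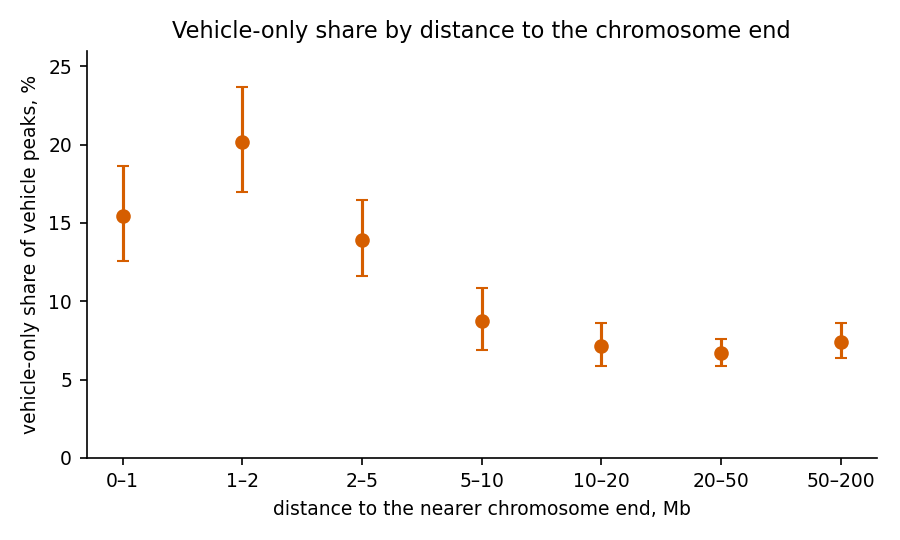
Vehicle-only share (%) of nuclear vehicle peaks by distance in Mb to the nearer chromosome end; points are shares and bars exact 95% intervals. The bands up to 5 Mb lie between 13.9% and 20.2%, those beyond between 6.70% and 8.73%.

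The distal share was higher for the vehicle-only peaks on both sides of the median score and at both widths. Among vehicle peaks below the list's median score of 6.46, 37.5% (33.9 to 41.1) of the vehicle-only peaks and 19.5% (18.3 to 20.8) of the others lay in the outer 5 Mb. At or above the median score the shares were 30.8% (23.8 to 38.6) and 17.8% (16.8 to 18.9). Among peaks of 200 bp they were 34.6% (30.2 to 39.3) and 19.6% (17.3 to 22.0). Among wider peaks they were 37.9% (33.3 to 42.7) and 18.4% (17.6 to 19.3). In lists of equal length, the 7105 best scores of each, the class had 1290 peaks and the shares came closer, at 23.9% (21.6 to 26.4) and 17.8% (16.8 to 18.8). Among the better-scoring 50% of each list, 22.4% (18.6 to 26.5) of 456 vehicle-only peaks and 17.98% (16.9 to 19.15) of the others were distal, with intervals that overlapped. The cause of the excess was not tested.

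Distal members had other called sites around them. Their median gap to another list was 6.79 kb (4.90 to 7.74), against 16.5 kb (12.6 to 23.3) for members further in, and their median scores were 4.78 and 4.82. The share in the outer 5 Mb did not simply fall with distance from another list. It was 35.2% (28.8 to 42.0) for members under 1 kb away and 54.8% (48.0 to 61.6) from 1 to 10 kb. From 10 to 100 kb it was 36.5% (31.2 to 42.1), and at 100 kb or more 6.82% (3.17 to 12.55). Of the 132 remote members, 9 were distal.

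The windows with most members were distal too. Chromosome 16 from 1 to 2 Mb and chromosome 19 from 0 to 1 Mb held 11 each. The first had 35 vehicle peaks in all and the second 44. The first window had 16 DHT and 60 LNCaP-abl peaks, and the second 15 and 68. Chromosome 1 from 2 to 3 Mb and chromosome 4 from 1 to 2 Mb followed with 10 members each. In the chromosome 1 window, 25 peaks were called under vehicle, 9 under DHT and 40 in LNCaP-abl. Next came the second megabase of chromosome 19, with 9 members of 44 vehicle peaks. Members of these 5 windows scored no more than 8.14, below each of the 12 highest.

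By chromosome, most ratios of the class to the other vehicle peaks had intervals that included 1. Chromosome 19 had 78 members, 8.85% of the class against 5.97% of the other vehicle peaks, a ratio of 1.48 (1.15 to 1.88). Chromosome 16 had 61 and a ratio of 1.40 (1.05 to 1.83), and chromosome 4 had 47 and a ratio of 1.34 (0.969 to 1.83). Chromosome 12 was lowest, with a ratio of 0.651 (0.427 to 0.954). Next came chromosome 2 with 0.754 (0.548 to 1.02) and chromosome 5 with 0.759 (0.509 to 1.09). Of 19 chromosomes with at least 20 members expected from the other vehicle peaks, 4 had an interval that excluded 1, without adjustment for their number. The fourth was chromosome 1, at 0.788 (0.614 to 0.997).

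**Figure D5:**
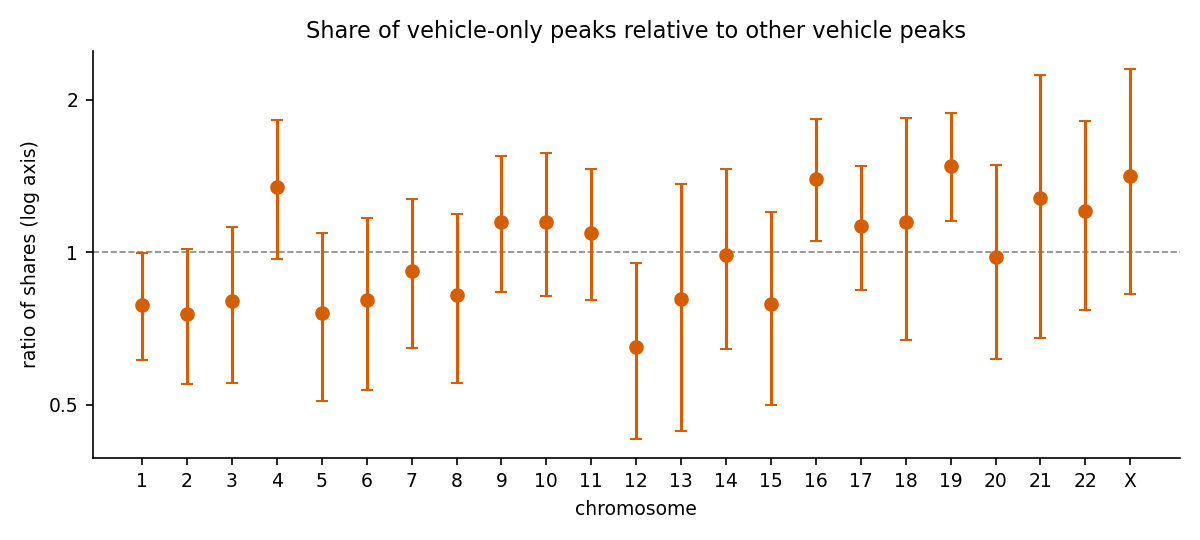
Ratio (log axis) of the share of vehicle-only peaks to the share of other vehicle peaks on each chromosome, with exact 95% intervals; the dashed line marks 1. Chromosomes 19 and 16 lie above 1 and chromosomes 12 and 1 below it with intervals that exclude 1.

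Leaving out distal peaks changed the ratios of some chromosomes more than those of others. On chromosome 16, 43 of the 61 members (70.5%) were in the outer 5 Mb, and without the outer 5 Mb of all chromosomes its ratio was 0.946 (0.551 to 1.53), on the other side of 1. On chromosome 4 the ratio without them was 1.39 (0.922 to 2.035), no lower than with them. On chromosomes 12, 2 and 5 the ratios without them were nearer to 1, with intervals that included it. They were 0.805 (0.510 to 1.22), 0.933 (0.665 to 1.28) and 0.930 (0.581 to 1.42). In lists of equal length the ratio was 0.993 (0.744 to 1.31) on chromosome 16 and 1.08 (0.816 to 1.42) on chromosome 12, each on the other side of 1 from the value over the full lists, and 0.887 (0.637 to 1.21) on chromosome 4. Chromosome 19 kept its direction, with 1.32 (0.915 to 1.86) without the outer 5 Mb and 1.39 (1.10 to 1.75) in lists of equal length. Its interval also included 1 without the scores of 4.822 and 3.418, at 1.31 (0.9775 to 1.73), and among peaks wider than 200 bp, at 1.41 (0.980 to 1.97). It stayed above 1 below the median score, at 1.51 (1.13 to 1.99), and with vehicle peaks less than 1 kb apart joined, at 1.38 (1.05 to 1.79). The DHT-only peaks had ratios of 1.10 (0.753 to 1.57) on chromosome 19 and 1.13 (0.741 to 1.65) on chromosome 16. On chromosome 4 they were at 0.502 (0.248 to 0.914), below 1 where the vehicle-only peaks were above it.

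On the mitochondrial genome, 4 of the 9 vehicle peaks were vehicle-only, with scores between 3.23 and 12.2. They lay between positions 9749 and 11927, the nearest of them 950 bp from a DHT peak, and no LNCaP-abl peak was called on that genome. On chromosome Y, 2 of 12 vehicle peaks were vehicle-only.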

How the data were processed

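The deposited data were 3 peak lists, 1 per TRIM24 library; the 3 input samples were left out. Build hg19 and MACS2 2.0, Bowtie 0.12.7 and FastQC 0.10.0 are named, per the submitters' processing notes. For the cutoff, the filters and the use of inputs, the sources used here give nothing. Each peak's score is the authors' −log10 value, of a p or of a q, which the labels leave unsaid. It starts at 2.02 in the vehicle list.

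Overlaps of at least 1 bp were found with Python 3.11.15 (numpy 2.4.6, pandas 2.3.3, scipy 1.17.1) and were the same with bedtools 2.31.1. The code was tested on simulated lists. Each ratio's interval was converted from the exact binomial interval of the chromosome's counts, and intervals of medians from order statistics. Gaps run from edge to edge. Printed starts count from 1.

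Members and rules were chosen with earlier results of these data known. Named peaks were the 12 highest-scoring, 5 widest, and 3 nearest, farthest and lowest-scoring members, plus the 3 shortest overlaps outside the class; chromosomes were the 3 highest and 3 lowest ratios among the 19 with at least 20 members expected, and windows the 5 fullest, with chromosomes 1, 3, 10 and 15 added after their values were seen. Alternatives changed the overlap rule, peak extent, score range, list length and sequences used. Planned promoter, gene list and motif shares need hg19 annotation or sequence and were left out.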

Additional observations from a re-analysis of the deposited data

How the results depend on the processing

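The quantities below are, in this order, the number of vehicle-only peaks, their share of the vehicle peaks used, their median score and median width, the shares within 10 kb of another list's peak (49.3% as reported) and of another member, and the share within 5 Mb of a chromosome end, as far as each left its interval or moved by over 1.5 times. A reciprocal overlap of at least 50% gave 5281 peaks, 54.2%, 5.48, 246 bp, 91.5%, 34.6% and 22.98% (other vehicle peaks 16.9%). When a gap below 1 kb made a peak shared, 6.845% of vehicle peaks were vehicle-only, with 33.0% and 7.20% for the shares within 10 kb. Peaks of 400 bp gave 1383 peaks, 14.2%, 4.87, 68.0%, 14.5% and 32.6%, with the width fixed. The better-scoring 50% of each list gave 457 peaks, a score of 7.91, 274 bp, 33.5% and, at the ends, 22.4% (others 18.0%). Lists of equal length gave 18.2%, 6.46, 247 bp, 30.85%, 12.6% and 23.9%, with ratios of 0.993 on chromosome 16, 1.08 on chromosome 12 (both reversed) and 0.887 on chromosome 4. Vehicle peaks at or above the median score gave 160 peaks, 3.17%, 7.68, 243 bp, 7.50% beside another member and 30.8% at the ends. Leaving out mitochondrial, Y and unplaced sequences moved none of the 7.

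The following 5 settings and all values for chromosome ends were chosen after seeing the data. Vehicle peaks below the median score gave 15.35% and a score of 4.69. Joining vehicle peaks less than 1 kb apart gave 42.4% and 3.92% for the shares within 10 kb. Without the scores of 4.822 and 3.418 the values were 7.61%, 4.96, 206 bp and 53.9% within 10 kb of another list. Peaks wider than 200 bp gave 439 peaks, 5.39%, 5.43, 246 bp, 52.6% within 10 kb of another list, and a ratio of 0.536 on chromosome 2. Without the outer 5 Mb there were 563 peaks, 7.24%, 42.6%, 8.17% and a ratio of 0.9455 on chromosome 16. The number of peaks follows from the peaks left in where a setting used fewer vehicle peaks. Some other values follow from their setting too. A reciprocal overlap admits members that overlap another list's peak. Counting gaps below 1 kb as shared removes all members within 1 kb, so 33.0% is the 220 of 667 from 1 to 10 kb away. Joining leaves no vehicle peaks less than 1 kb apart. Cuts by score move the median score, and a cut by width moves the median width. For the remaining values the cause was not tested. Of the 12 highest-scoring members, 8 remained vehicle-only when a gap below 1 kb made a peak shared, and 11 with peaks of 400 bp. A reciprocal overlap and lists of equal length could not remove any of the 12, so they say nothing about them. No paired analysis was possible because there was a single library per condition, so none could be left out either. The unknown depth limits what a missing call shows.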

Other observations

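A few exact score values held far more vehicle-only peaks than the rest, a pattern looked at after the data were seen. Many peaks of the vehicle list share a score, and 49 values were each held by 40 or more of its peaks. At a score of 4.822, 97 of 134 vehicle peaks (72.4%, 64.0 to 79.8) were vehicle-only. At 3.418 the count was 59 of 86 (68.6%, 57.7 to 78.2), and at 6.351 it was 22 of 42 (52.4%, 36.4 to 68.0). These were the 3 values with a majority of vehicle-only peaks. Over the 47 values other than 4.822 and 3.418, 7.71% (6.96 to 8.52) of 4605 peaks were vehicle-only, and the neighbouring value of 4.808 held 207 vehicle peaks with 19 members. Together, 4.822 and 3.418 were held by 156 of the 881 members (17.7%, 15.2 to 20.4) and by 64 of the 8863 other vehicle peaks (0.722%, 0.556 to 0.921). The bump in the third score decile contains the value of 4.822.

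Members at the leading value were narrow and remote. Of the 97, 75 were 200 bp wide and 39 lay 100 kb or more from any peak of another list, with a median gap of 58.8 kb. In the outer 5 Mb of a chromosome lay 16 of them (16.5%), against 33.9% of the 59 members at 3.418. Without both values, 39.1% (35.5 to 42.8) of the nuclear members were within 5 Mb of an end. What gives peaks the same score is not in the lists, and it was not tested.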
